A study of Mus musculus with 15 samples.

Results

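Ifngr1, Ifngr2, Ifnar1, Ifnar2, Il10ra and Il10rb encode the chains of the receptors for interferon-gamma, type I interferons and interleukin-10. They were chosen by name, after the Ensembl identifiers of the count files had been matched to gene symbols, and are 6 of the 55421 genes counted. Their mRNA was followed in CD4+ T cells from C57BL/6 donors that carried floxed Prkaa1 alleles (PRKAA1fl/fl), either without Cre (WT) or with Cre under the CD4 promoter (KO). Prkaa1 encodes AMPKα1, the catalytic subunit of an energy sensing kinase, and CD4-Cre deletes it while T cells develop in the thymus. Naive donor cells were given to Rag2-deficient recipients, which have no T or B cells of their own and develop colitis after such a transfer, and T cells were sorted after 6 weeks from spleen or from mesenteric lymph nodes (mLN). There were 4 WT and 4 KO samples from spleen, 3 WT (replicates 1, 2 and 4, after 1 was excluded by the study for quality) and 4 KO samples from mLN, and all donor cells, WT included, carried the floxed alleles. By the study's methods and legends the mice were young adults and the samples of a group came from separate recipients of 1 experiment, so p-values measure the spread between recipients within that experiment. The labels do not say which spleen and mLN samples share a recipient. Each recipient received cells of 1 genotype, so the genotype of the T cells and the state of the recipient cannot be told apart. These are bulk samples, in which fewer cells of a type and less RNA per cell cannot be told apart.

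Each of these receptors pairs a chain that binds the cytokine with a chain that completes the signalling complex. Interferon-gamma is bound by IFNGR1, which carries the kinase JAK1, and IFNGR2 brings JAK2. IFNAR2 with JAK1 and IFNAR1 with TYK2 form the type I interferon receptor, which acts through STAT2 and IRF9. IL10RA with JAK1 and IL10RB with TYK2 form the IL-10 receptor, which acts mainly through STAT3, and IL10RB also serves the receptors for IL-22 and the lambda interferons. In T cells, interferon-gamma is a product of T helper 1 cells, and loss of the IL-10 receptor is known to cause colitis in mice and humans.

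Between 9363940 and 11283439 reads lay on genes in each library. Prkaa1 was between 46.7 and 60.6 counts per 1e6 reads on genes (CPM, scaled with the TMM factors of edgeR, as are all levels given here) in the 7 WT libraries and between 18.5 and 32.3 in the 8 KO libraries, so no library went against its label. All 12 T cell markers were detected, and their summed level was 8446 to 11784 CPM. The 6 erythroid markers stood apart in WT spleen replicates 3 and 4 and WT mLN replicate 4, since their sum reached 1903 CPM in WT spleen and 814 in WT mLN against at most 107 in KO spleen and 71.5 in KO mLN. For KO against WT, Ifngr1 and Ifnar2 in spleen are therefore also given without WT replicates 3 and 4, and Ifngr1 in mLN without WT replicate 4. No fit between the organs left all of those libraries out together.

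Ifngr1 lies on chromosome 10 at 19591949-19610229 on the plus strand and Il10ra on chromosome 9 at 45253837-45269149 on the minus strand (GRCm38). The other 4 members form a cluster of 193 kb on chromosome 16, all on the plus strand, in the order Ifnar2 (91372783-91405589), Il10rb (91406164-91425834), Ifnar1 (91485238-91507441) and Ifngr2 (91547072-91565623). Gm21970, an annotated gene that had 0 reads in every sample, overlaps 9.46% of the exon bases of Ifnar2 and 14.9% of those of Il10rb on the same strand. A read on exons of more than 1 gene is not counted, so the levels of Ifnar2 and Il10rb leave out such reads in every library alike.

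The promoters of Ifngr1 and Ifngr2 are shown because both chains of 1 receptor, encoded on different chromosomes, differed most in level and in response. Each is the RefSeq sequence of GRCm38.p6 from 250 bases before to 50 bases after the start of the gene in RefSeq, which for Ifngr2 lies slightly upstream of the start given above, on the plus strand, at chr10:19591699-19591998 for Ifngr1 and chr16:91546809-91547108 for Ifngr2. Capitals mark CCGCCC, the core of a GC box, read on either strand, where neighbouring matches may overlap.
Ifngr1: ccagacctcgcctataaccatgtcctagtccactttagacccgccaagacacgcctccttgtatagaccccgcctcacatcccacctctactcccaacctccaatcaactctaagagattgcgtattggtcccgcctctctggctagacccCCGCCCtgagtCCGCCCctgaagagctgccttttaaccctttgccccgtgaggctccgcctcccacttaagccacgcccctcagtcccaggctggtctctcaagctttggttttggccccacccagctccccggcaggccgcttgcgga
Ifngr2: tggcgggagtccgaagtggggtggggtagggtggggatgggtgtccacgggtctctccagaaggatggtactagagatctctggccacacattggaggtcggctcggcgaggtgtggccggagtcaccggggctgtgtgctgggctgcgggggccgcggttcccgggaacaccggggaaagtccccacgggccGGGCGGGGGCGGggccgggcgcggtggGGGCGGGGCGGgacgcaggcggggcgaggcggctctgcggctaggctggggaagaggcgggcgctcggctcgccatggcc
The window of Ifngr1 held 2 such matches, 14 CpG and 60.3% G+C, and that of Ifngr2 held 4 matches, of which a pair shared a base, 31 CpG and 74.3% G+C. CCGCCC occurred in 35.9% of 27025 promoters of this length. The gamma activated sequence TTCNNNGAA, present in 8.47% of them, was in neither window and was found 1 time each in those of Ifnar2 and Ifnar1. The core of an interferon response element, GAAA and GAAA parted by any 2 bases, was present in 3.49% of promoters and in none of these 4 windows. All motifs were read on both strands. Promoters of 4 of the 6 members were matched, without Il10ra and Il10rb.

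Ifngr1 was by far the most abundant of the 6 mRNAs per length of exon. Its mean level over the 15 samples was 366 ± 158 CPM per kb (SD, n = 15), which placed it at rank 87 of 15416 genes ordered per length. The next was Ifnar1 with 28.7 ± 2.8 CPM per kb (rank 2142), and Ifngr1 was above it in 15 of 15 samples. Il10ra (23.8 ± 5.4), Il10rb (19.2 ± 1.8) and Ifnar2 (16.2 ± 3.7) followed in CPM per kb. These 4 chains of middle level had overlapping ranges: Ifnar1 was above Il10ra in 13 of 15 samples, Il10ra above Il10rb in 13, and Il10rb above Ifnar2 in 12. Ifngr2 was last with 1.82 ± 0.62 CPM per kb (rank 11023) and below Ifnar2 in 15 of 15 samples. The scarcer chain of the interferon-gamma receptor was thus the accessory one, whereas both chains of the IL-10 receptor were at like levels. In KO spleen the group mean of Ifnar2 (19.8 ± 1.5 CPM per kb, n = 4) stood just above that of Il10rb (19.4 ± 0.54), and in the other 3 groups the order of means was that of the whole. With the length of the longest transcript in place of all exons, Il10rb (26.2 CPM per kb) stood above Il10ra (23.8).

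**Figure D1:**
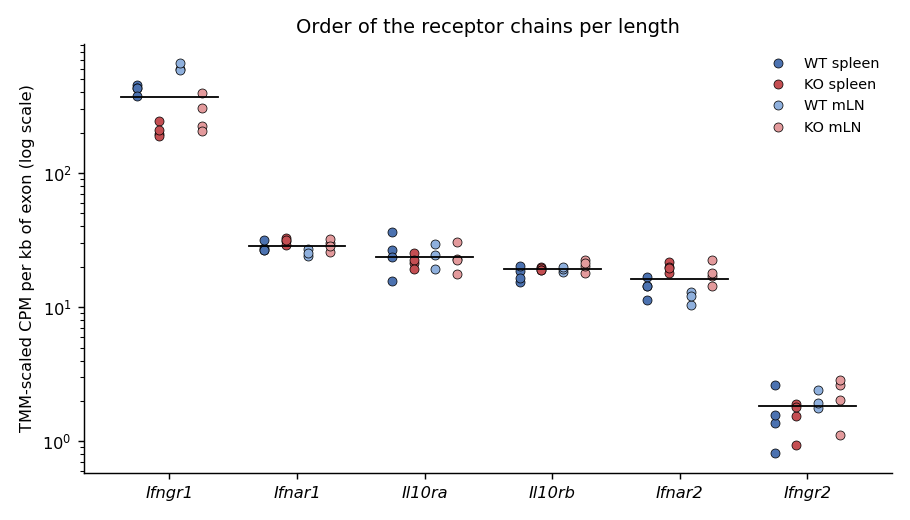
Level of each receptor chain per kb of exon (TMM-scaled CPM per kb, log axis) in the 15 samples, coloured by group, with the mean over all samples as a line. Ifngr1 (mean 366) lies above and Ifngr2 (mean 1.82) below the other 4 chains in every sample.

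The genotype comparison asks whether T cells without AMPKα1 carried other levels of these receptors after expansion in the recipients. Ifngr1 was lower in KO in both organs, Ifnar2 was higher in every KO library of an organ than in any WT library of it without passing the test, and the other 4 chains had overlapping groups. In the edgeR quasi-likelihood test over all genes, 1 of the 6 members was called lower in KO spleen, where 0.751% of 14254 genes were, and 1 of 6 in KO mLN, where 0.292% of 14359 were (adjusted p under 0.05, Benjamini-Hochberg). No member was called higher in KO, against a background of 0.547% in spleen and 0.348% in mLN. At an unadjusted p under 0.05, 1 member, Ifnar2, was higher in each organ, and DESeq2 called it in both. Over all genes, 2924 of 14254 in spleen and 2253 of 14359 in mLN had such a p in either direction. DESeq2 called 799 and 561 genes. For 2 of 6 members the groups did not overlap in spleen, and for the same 2 in mLN, where 12.0% and 14.0% of all genes tested had groups that did not overlap. All 6 members passed the filter on low counts in every comparison.

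Ifngr1, the chain that binds interferon-gamma, was at 1279, 1221, 1223.5 and 1068 CPM in WT spleen replicates 1 to 4 and at 557, 533, 699 and 599 CPM in KO spleen. In mLN it was at 1690, 1679 and 1866 CPM in the 3 WT libraries and at 1131, 862, 639 and 585 CPM in the 4 KO libraries. The lowest WT library was above the highest KO library in each organ, and KO mLN was the most variable group, with a CV of 30.9% against 6.02% in WT mLN. The fold change was 0.498 in spleen (log2 -1.01 ± 0.096 SE, 95% interval -1.22 to -0.79, edgeR adjusted p = 0.00245, rank 4 of 14254 genes by p). In mLN it was 0.461 (log2 -1.12 ± 0.19 SE, 95% interval -1.53 to -0.71, edgeR adjusted p = 0.0326). The fall in spleen held when any 1 library was left out (log2 -1.09 to -0.96) and without WT replicates 3 and 4 (log2 -1.07, edgeR adjusted p = 0.00266). In mLN the adjusted p passed 0.05 only when KO replicate 1 was left out (log2 -1.32, edgeR adjusted p = 0.00953) and lay between 0.0557 and 0.135 when any 1 of the other 6 libraries was left out, at log2 -1.15 to -0.98. Without WT mLN replicate 4, which had high erythroid markers, the difference was log2 -1.07 and not called (edgeR adjusted p = 0.135).

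The summed level of 10 genes of resting T cells moved with Ifngr1 in mLN, at 3458 to 4061 CPM in WT and 2103 to 2913 in KO, whereas in spleen the groups overlapped (1462 to 3156 in WT and 1544 to 2068 in KO). Of these 10 genes, Il7r, the receptor for the survival cytokine IL-7, was called lower in KO in each organ (log2 -1.48 in spleen, edgeR adjusted p = 0.0391, and -1.60 in mLN, edgeR adjusted p = 0.00314). Of 12 genes of T cell activation, Il2ra and Myc were called lower in KO spleen and none was called higher, with 5 lower and 2 higher at an unadjusted p under 0.05 and 4 lower and 2 higher by DESeq2. In KO mLN edgeR called none of the 12, with 6 lower and 2 higher at an unadjusted p under 0.05 and 1 lower and 2 higher by DESeq2. Over all genes, 2924 of 14254 in spleen and 2253 of 14359 in mLN had such an unadjusted p in either direction. The part of the resting and activation genes in the level of Ifngr1 was not tested.

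Ifngr2, the accessory chain of the same receptor, was at 5.19, 5.87, 3.06 and 9.91 CPM in WT spleen and at 7.10, 5.84, 6.81 and 3.52 CPM in KO spleen. In mLN it was at 6.62, 9.05 and 7.31 CPM in WT and at 4.19, 9.84, 7.71 and 10.9 CPM in KO. The groups overlapped in both organs, and these levels rest on 32 to 121 reads per library. The difference was log2 -0.05 in spleen (95% interval -0.80 to 0.70, edgeR adjusted p = 0.952) and 0.09 in mLN (95% interval -0.62 to 0.80, edgeR adjusted p = 0.923).

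**Figure D2:**
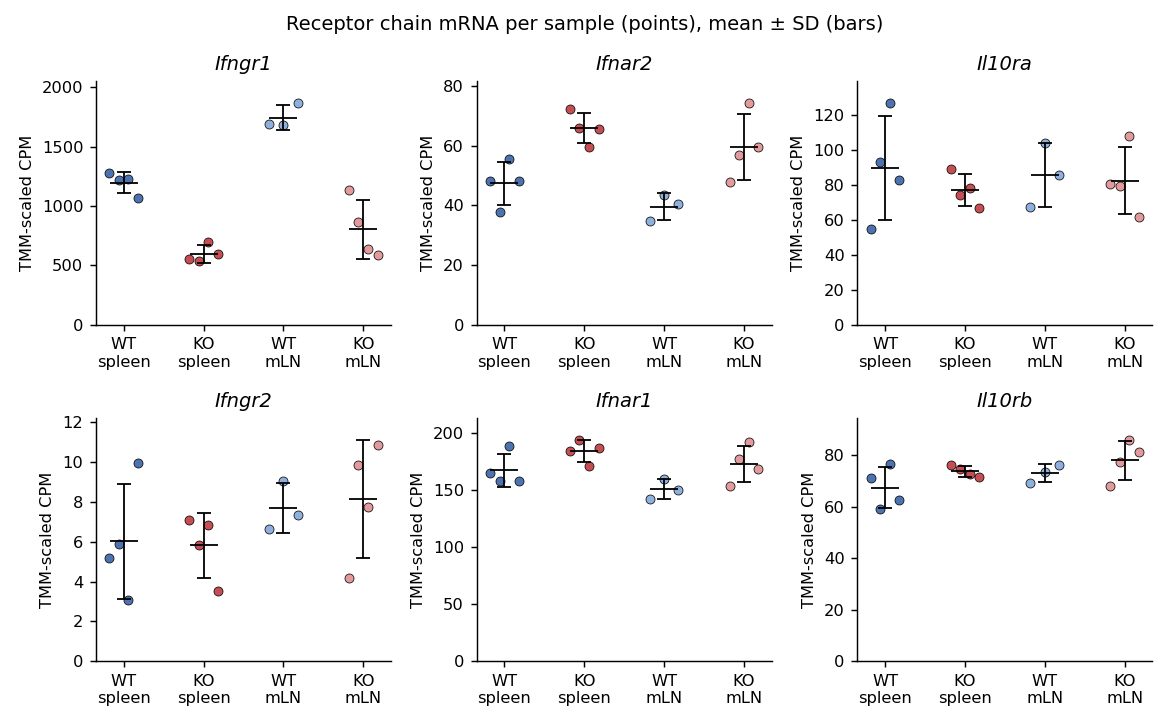
TMM-scaled CPM (vertical axis, from 0) of the 6 receptor chains in each sample, with the mean and SD of each group; the ligand-binding chains are in the upper row and the accessory chains in the lower row. Ifngr1 falls from WT to KO in both organs, Ifnar2 lies higher in KO without overlap, and the other groups of WT and KO overlap.

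Ifnar2, the chain of the type I receptor with the higher affinity for interferon, was at 48.1, 37.7, 55.5 and 48.1 CPM in WT spleen and at 72.2, 66.1, 59.6 and 65.7 CPM in KO spleen. It was at 34.7, 43.5 and 40.4 CPM in WT mLN and at 47.8, 56.8, 74.3 and 59.6 CPM in KO mLN. In each organ the lowest KO library was above the highest WT library. The difference was log2 0.47 ± 0.11 SE in spleen (95% interval 0.22 to 0.72, edgeR adjusted p = 0.0665) and 0.59 ± 0.16 SE in mLN (95% interval 0.24 to 0.95, edgeR adjusted p = 0.122), so it was not called in either organ. DESeq2 gave an adjusted p of 0.00772 in spleen and 0.0187 in mLN, and without WT spleen replicate 3 edgeR called it in spleen (log2 0.56, edgeR adjusted p = 0.0357). Without WT spleen replicates 3 and 4 the difference was log2 0.62 (edgeR adjusted p = 0.0615).

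Ifnar1, which anchors TYK2, was at 165, 158.5, 189 and 158 CPM in WT spleen and 184, 194, 171.5 and 187.5 CPM in KO spleen. In mLN its levels were 142, 160 and 151 CPM in WT and 154, 178, 192 and 169 CPM in KO. The 3 highest KO libraries of mLN were above all WT libraries there, and KO replicate 1 lay among them. The difference was log2 0.14 in spleen (95% interval -0.03 to 0.30, edgeR adjusted p = 0.342) and 0.20 in mLN (95% interval -0.02 to 0.42, edgeR adjusted p = 0.372).

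Il10ra, which binds IL-10, was at 54.5, 93.1, 126.5 and 82.9 CPM in WT spleen and at 89.2, 74.0, 78.0 and 66.9 CPM in KO spleen. In mLN it was at 67.4, 104, 85.2 CPM in WT and at 80.4, 78.9, 108 and 61.5 CPM in KO. WT spleen was the most variable group, with a CV of 33.3%, and it spanned all 4 KO spleen libraries. The difference was log2 -0.22 in spleen (95% interval -0.68 to 0.24, edgeR adjusted p = 0.600) and -0.06 in mLN (95% interval -0.48 to 0.37, edgeR adjusted p = 0.916). These intervals include changes of either sign in both organs. Il10rb, the shared accessory chain, varied little: its libraries lay between 59.1 and 76.7 CPM in WT spleen, 71.7 and 76.2 in KO spleen, 69.4 and 76.4 in WT mLN and 68.0 and 86.0 in KO mLN. Its difference was log2 0.13 in spleen (95% interval -0.06 to 0.32, edgeR adjusted p = 0.432) and 0.10 in mLN (95% interval -0.14 to 0.34, edgeR adjusted p = 0.724).

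Between the organs, Ifngr1 alone differed among the 6 chains. It was higher in mLN than in spleen in WT cells by log2 0.53 ± 0.088 SE (1.45-fold, 95% interval 0.33 to 0.73, edgeR adjusted p = 0.00381), and the lowest mLN library was above the highest spleen library. This is 1 of 6 members called higher in mLN, where 9.70% of 14515 genes were called higher and 10.8% lower, and 1 of 6 whose groups did not overlap, against 31.9% of genes. In KO cells Ifngr1 differed by log2 0.41 ± 0.18 SE (95% interval 0.02 to 0.80, edgeR adjusted p = 0.115), and KO mLN replicates 3 and 4 lay within the range of KO spleen. Without KO mLN replicate 4 the difference was called (log2 0.54, edgeR adjusted p = 0.0333). No member was called between the organs in KO, nor were the groups of any member without overlap, whereas 11.4% of 14240 genes were higher in mLN, 13.9% lower, and 28.7% did not overlap. At an unadjusted p under 0.05, edgeR counted 1 member, Ifngr1, in KO, where 5321 of 14240 genes had such a p in either direction. DESeq2 called 0 members there. The organ and genotype comparisons share samples, so their values are not independent of each other.

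The other 5 chains differed between the organs by no more than log2 0.34 in WT and 0.47 in KO in size, both for Ifngr2, with intervals from -0.45 to 1.13 and from -0.21 to 1.15. Ifnar2 was at log2 -0.27 in WT (95% interval -0.59 to 0.05, edgeR adjusted p = 0.211) and -0.16 in KO (95% interval -0.44 to 0.11, edgeR adjusted p = 0.379). Its direction between the organs was thus opposite in sign to that of Ifngr1, as values that did not pass the test.

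The genotype by organ interaction tests whether the KO difference itself differed between mLN and spleen. It was called for 0.00% of 15438 genes by edgeR (652 genes had unadjusted p under 0.05, and DESeq2 called 2), and for no member, none of which had an unadjusted p under 0.05 or was called by DESeq2. For Ifngr1 it was log2 -0.11 (95% interval -0.60 to 0.37), for Ifnar2 0.12 (95% interval -0.30 to 0.53), for Il10ra 0.16 (95% interval -0.50 to 0.81) and for Ifngr2 0.14 (95% interval -0.91 to 1.19). The narrowest intervals were those of Ifnar1 (-0.19 to 0.31) and Il10rb (-0.31 to 0.25). For Ifngr1 that interval includes a KO difference in mLN that is larger and one that is smaller than in spleen.

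**Figure D3:**
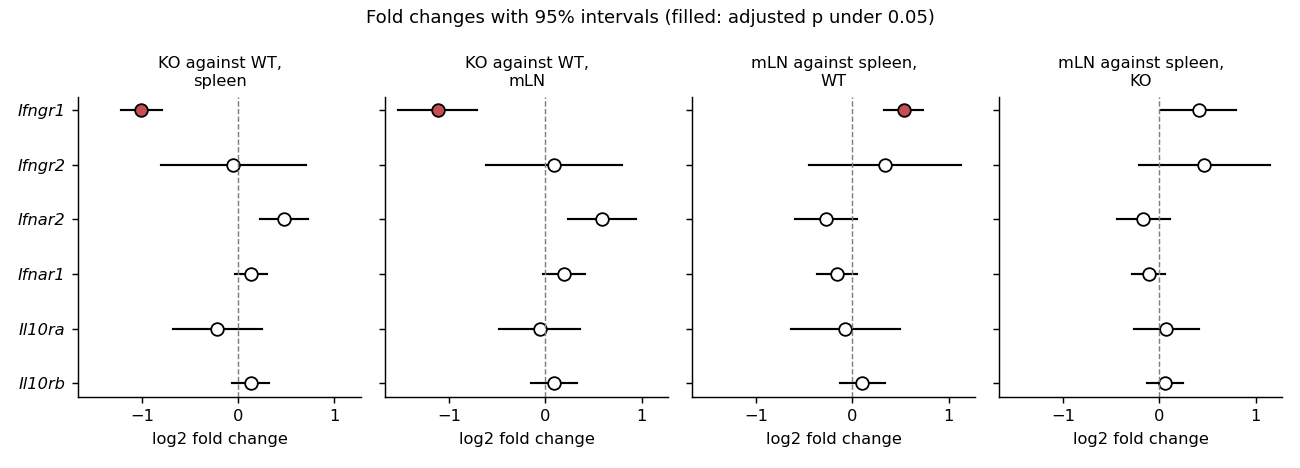
Log2 fold change (horizontal axis) of the 6 receptor chains in the 4 comparisons, with 95% intervals from edgeR and filled points where the adjusted p was under 0.05. Filled points stand only at Ifngr1, for KO against WT in spleen (-1.01) and mLN (-1.12) and for mLN against spleen in WT (0.53).

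The ratio of both chains of a receptor within a library does not depend on scaling between libraries, and it is given as a description without a test. Ifngr1 reads outnumbered Ifngr2 reads by a geometric mean of 217 in WT spleen (range 108 to 400.0), 106 in KO spleen (78.5 to 170), 229 in WT mLN (185.5 to 255) and 101 in KO mLN (54.0 to 270). The means were lower in KO, but the ranges overlapped in both organs. In KO mLN, replicate 1 stood apart at the upper end of the range. The Ifnar2 to Ifnar1 ratio of reads was 0.281 in WT spleen (0.238 to 0.304), 0.357 in KO spleen (0.340 to 0.392), 0.261 in WT mLN (0.244 to 0.272) and 0.341 in KO mLN (0.311 to 0.387). Here every KO library was above every WT library of its organ, by log2 0.35 between the means in spleen and 0.39 in mLN, so the binding chain differed more than its partner. The Il10ra to Il10rb ratio was 1.27 in WT spleen (0.766 to 1.65), 1.04 in KO spleen (0.933 to 1.17), 1.15 in WT mLN (0.971 to 1.41) and 1.04 in KO mLN (0.758 to 1.25), with overlap throughout.

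**Figure D4:**
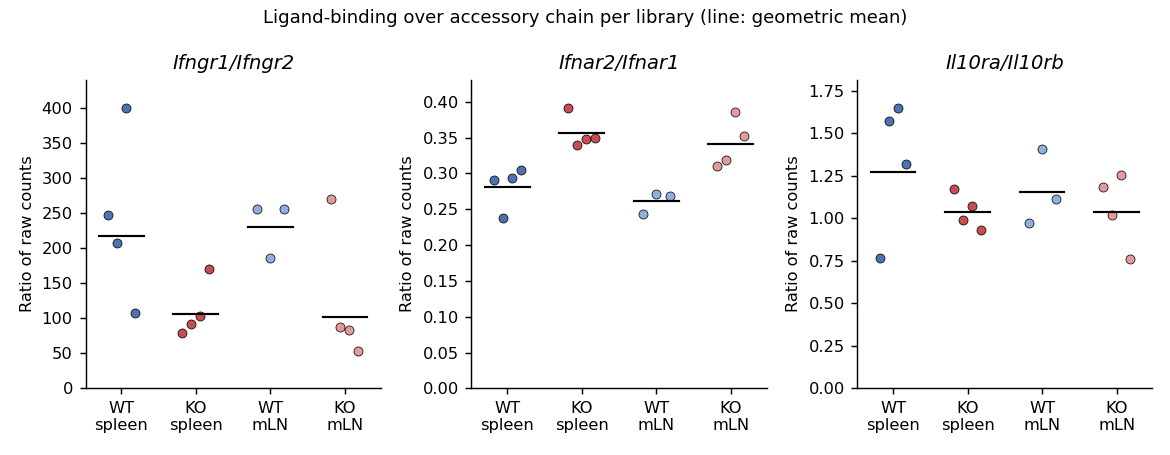
Ratio of raw read counts of the ligand-binding to the accessory chain in each library (vertical axes from 0, a scale for each receptor), with the geometric mean of each group as a line. Only the Ifnar2/Ifnar1 ratio separates KO (0.311 to 0.392) from WT (0.238 to 0.304) in both organs.

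Of 13 ligands of these receptor families only Ifng, Il10 and Il22 passed the filter on low counts, and none was called between the genotypes in either organ, at an unadjusted p under 0.05 or by DESeq2. Ifng mRNA ranged from 30.6 to 235 CPM in WT spleen, 106 to 221 in KO spleen, 32.8 to 182 in WT mLN and 82.1 to 125 in KO mLN. WT replicate 4 was the lowest in both organs, and the KO libraries lay within the WT range. The KO difference of Ifng was log2 0.33 ± 0.46 SE in spleen (edgeR adjusted p = 0.732) and -0.06 ± 0.40 SE in mLN (edgeR adjusted p = 0.962). Il10 was scarce, at 3.22 to 18.0 CPM in WT spleen, 3.88 to 8.76 in KO spleen, 3.26 to 12.3 in WT mLN and 0.744 to 5.54 in KO mLN, with overlap in both organs. Ifnb1, Ifna2, Ifna4, Ifne and Ifnl3 had 0 reads in all 15 libraries, which bears on these T cells and not on other cells of the recipient. Between the organs, Il22 was higher in mLN in WT (log2 1.85 ± 0.56 SE, edgeR adjusted p = 0.0448), and Ifng was lower in mLN in KO (log2 -0.78 ± 0.22 SE, edgeR adjusted p = 0.0220). Of the 5 other class II cytokine receptors, Il20ra and Il20rb passed the filter in spleen and only Il20rb in mLN, with no call between the genotypes, none at an unadjusted p under 0.05 and none by DESeq2. Il22ra1 and Ifnlr1, which pair with Il10rb in the receptors for IL-22 and the lambda interferons, had at most 1 and 3 reads in any library. Il20ra was lower in mLN in WT (log2 -2.40 ± 0.67 SE, edgeR adjusted p = 0.0337).

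Among the 7 kinases and transducers behind the receptors, Irf9, the DNA-binding partner of STAT2, was higher in KO spleen. It was at 111 to 125.5 CPM in WT spleen and 156 to 159 in KO spleen (log2 0.43 ± 0.061 SE, edgeR adjusted p = 0.0139), and at 129 to 154 in WT mLN and 161.5 to 182 in KO mLN (log2 0.26 ± 0.095 SE, edgeR adjusted p = 0.234). In mLN none of the 7 was called, 3 were higher at an unadjusted p under 0.05, and DESeq2 called 1, Stat2. Over all genes, 0.547% were called higher in spleen, and 2253 of 14359 had such an unadjusted p in mLN in either direction. By edgeR Stat2 was at log2 0.31 in spleen (edgeR adjusted p = 0.0972) and 0.56 in mLN (edgeR adjusted p = 0.0765). Jak1, which serves all 3 binding chains, was abundant, at 879.5 to 1140 CPM over all libraries, with log2 -0.10 in both organs (edgeR adjusted p = 0.460 in spleen and 0.524 in mLN). Jak2 and Stat3 were not called in any of the 4 comparisons. Tyk2, the kinase of IFNAR1 and IL10RB, was lower in mLN than in spleen in both genotypes. It was at 129 to 209 CPM in WT spleen against 78.2 to 83.8 in WT mLN (log2 -1.11 ± 0.15 SE, edgeR adjusted p = 0.00130). In KO it was at 173 to 190 CPM in spleen against 68.5 to 106.5 in mLN (log2 -1.17 ± 0.12 SE, edgeR adjusted p = 5.52e-05). The groups did not overlap in either genotype. Ifnar1 and Il10rb, the chains that carry TYK2, were not called between the organs. The 12 markers of myeloid cells, which also express Tyk2, summed to 223 to 687 CPM in spleen and 108 to 281.5 in mLN, and their part in this difference was not tested. Stat2 was lower in mLN in WT (log2 -0.44 ± 0.12 SE, edgeR adjusted p = 0.0340).

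Of 7 negative regulators, Usp18, which binds IFNAR2 and dampens type I signalling, was higher in KO mLN. Its level was 10.7 to 14.6 CPM in WT mLN and 30.2 to 56.6 in KO mLN (log2 1.66 ± 0.24 SE, edgeR adjusted p = 0.0305), and 9.65 to 20.02 in WT spleen and 18.6 to 47.0 in KO spleen (log2 1.12 ± 0.32 SE, edgeR adjusted p = 0.101). Its groups overlapped in spleen, where none of the 7 was called and 1 was lower and 2 higher at an unadjusted p under 0.05. DESeq2 called Usp18 (higher) and Socs3 (lower) there. Over all genes, 0.348% were called higher in mLN, and 2924 of 14254 had such an unadjusted p in spleen in either direction. Socs3, which restrains STAT3 signalling, was at log2 -0.61 in spleen (edgeR adjusted p = 0.0729) and -0.49 in mLN (edgeR adjusted p = 0.198) without being called. Socs1, an inhibitor of the interferon-gamma receptor, was not called between the genotypes and was higher in mLN than in spleen in KO (log2 0.60 ± 0.073 SE, edgeR adjusted p = 0.000169). Ptpn1, a phosphatase of JAK2 and TYK2, was higher in mLN in WT (log2 0.30 ± 0.088 SE, edgeR adjusted p = 0.0396).

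Genes known to be induced through each receptor were taken as 3 lists. Of 30 genes induced by type I interferon, 28 were tested in spleen, where 5 rose in KO (Ifi27l2a, Rtp4, Oas3, Xaf1 and Mx1) and none fell, with a median of log2 0.54 against -0.004 over all genes. In mLN all 30 were tested, 8 rose (Ifi27l2a, Mx1, Cmpk2, Isg15, Mx2, Ifit1, Rtp4 and Xaf1) and none fell, with a median of 0.71. No gene of the list fell at an unadjusted p under 0.05 or by DESeq2 in either organ, and 19 and 26 were higher at that p. Over all genes, 0.547% were called higher in spleen and 0.348% in mLN. The unadjusted p was under 0.05 in either direction for 2924 of 14254 genes in spleen and 2253 of 14359 in mLN. Ifi27l2a, a small protein of the mitochondrial membrane, was at 69.4 to 108 CPM in WT spleen and 164 to 225 in KO spleen (log2 1.21 ± 0.15 SE, edgeR adjusted p = 0.0112). It was at 116.5 to 150.5 CPM in WT mLN and 265 to 335 in KO mLN (log2 1.14 ± 0.12 SE, edgeR adjusted p = 0.00679). Mx1, an antiviral GTPase, was at 11.8 to 23.3 CPM in WT spleen and 27.5 to 35.1 in KO spleen (log2 0.96 ± 0.20 SE, edgeR adjusted p = 0.0475), and at 8.17 to 9.85 CPM in WT mLN and 22.8 to 32.4 in KO mLN (log2 1.51 ± 0.19 SE, edgeR adjusted p = 0.0173). No KO library of an organ overlapped its WT libraries for either gene. Rtp4, a chaperone of cell surface receptors, rose by log2 1.33 ± 0.21 SE in spleen (edgeR adjusted p = 0.0256) and 1.19 ± 0.21 SE in mLN (edgeR adjusted p = 0.0382).

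How many genes of this list were called depended on single libraries: between 1 and 9 in spleen and between 1 and 7 in mLN when any 1 was left out, and DESeq2 called 11 and 17. The number moved by over 1.5 times without any 1 library other than WT replicate 4 in spleen (4 called) and KO replicate 1 in mLN (7 called), while the median stayed between log2 0.47 and 0.69 in spleen and between 0.65 and 0.80 in mLN. Without WT spleen replicates 3 and 4 edgeR called 8, with a median of log2 0.83, and without WT mLN replicate 4 it called 1, with a median of 0.78. Markers of dendritic cells, of which plasmacytoid cells are known for making type I interferon, overlapped in spleen (26.2 to 36.1 CPM summed over 7 genes in WT and 26.9 to 34.3 in KO). In mLN they were at 20.3 to 29.6 CPM in WT and 31.3 to 46.4 in KO. Siglech was at 0.102 to 1.57 CPM in WT mLN and 1.88 to 8.19 in KO mLN, and Itgax was also without overlap there. Zbtb46, with the highest maximum of these genes in both mLN groups, overlapped, as did Xcr1, Flt3 and Clec9a. Cd209a was at 0 in all 7 mLN libraries. Of the 4 dendritic cell markers tested in mLN, edgeR called none and 1 had a negative log2 fold change. At an unadjusted p under 0.05, 2 were higher, and DESeq2 called only Siglech, as higher. The 5 NK cell markers summed to 49.7 to 74.8 CPM in WT spleen and 95.1 to 109.5 in KO spleen, and to 45.1 to 58.9 in WT mLN and 83.2 to 123.5 in KO mLN, mostly through Eomes, which T cells also express. Eomes was called higher in KO by edgeR in both organs. Klrb1c of the same markers was lower in KO mLN (5.47 to 11.9 CPM in WT and 1.61 to 5.21 in KO), called by DESeq2 and not by edgeR (log2 -1.69, edgeR adjusted p = 0.101). Cd8a and Cd8b1 summed to 7.31 to 11.5 CPM in WT mLN and 19.5 to 28.3 in KO mLN, and to at most 4.96 in spleen. In mLN only Cd8a was without overlap (0.305 to 8.46 CPM in WT and 16.5 to 23.1 in KO), whereas Cd8b1 was at 3.05 to 7.01 CPM in WT and 1.49 to 6.99 in KO. The 12 myeloid markers summed to 246.5 to 687 CPM in WT spleen and 223 to 678 in KO spleen, but Csf1r among them was at 13.3 to 23.8 CPM in WT spleen and 25.6 to 55.5 in KO spleen, and DESeq2 called it and Adgre1 higher there, while edgeR called neither. Of the 12, 5 had a negative log2 fold change in KO spleen, where S100a8 was at 60.2 to 214 CPM against 64.8 to 325 in WT. In KO mLN DESeq2 called 1 myeloid marker, S100a8, and it was lower. Of the stromal cell markers, edgeR called Acta2 higher in KO in both organs and Myh11 in mLN. A negative log2 fold change was found for 2 of 3 tested in spleen and 1 of 4 in mLN. Acta2 was at 0.711 to 0.864 CPM in WT mLN and 3.66 to 7.53 in KO mLN. Of 3 B cell markers tested in mLN, edgeR called Pax5 higher and 1 was negative. Pax5 was at 0 to 0.203 CPM in WT mLN and 1.675 to 4.42 in KO mLN. The part of these cell types in the result was not tested.

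None of the genes induced by interferon-gamma was called between the genotypes by edgeR, of 27 tested in spleen (median log2 0.16) and 28 in mLN (median 0.12). Over all genes, 0.751% were called lower and 0.547% higher in spleen, and 0.292% and 0.348% in mLN. Of the list, 3 genes in spleen and 9 in mLN had a negative log2 fold change, against 50.7% and 50.4% of all genes. At an unadjusted p under 0.05, spleen had 2 lower and 2 higher genes of the list and mLN had 2 lower and 6 higher. Over all genes, 2924 of 14254 in spleen and 2253 of 14359 in mLN had such a p in either direction. DESeq2 called 1 gene of the list in each organ, Gbp8 in spleen and Gbp9 in mLN, both higher. Ciita, the activator of MHC class II genes, was at 5.16 to 6.43 CPM in WT spleen and 2.26 to 5.02 in KO spleen, and at 8.66 to 9.95 CPM in WT mLN and 1.70 to 7.45 in KO mLN. Its groups did not overlap in either organ, at log2 -0.80 ± 0.26 SE in spleen (edgeR adjusted p = 0.127) and -1.28 ± 0.43 SE in mLN (edgeR adjusted p = 0.193). Of 8 genes induced by IL-10 through STAT3, Pim1, a survival kinase, fell in KO spleen by log2 0.67 (SE 0.11, edgeR adjusted p = 0.0378), and Il4ra, the IL-4 receptor chain, by 0.44 (SE 0.081, edgeR adjusted p = 0.0444). At an unadjusted p under 0.05, 2 of the 8 were lower and 2 higher in spleen, and DESeq2 called Hmox1 higher as well (edgeR log2 1.01, edgeR adjusted p = 0.0812). KO spleen replicate 3 had 38.1 CPM of Hmox1 and the other KO spleen libraries 15.9 to 18.7. In mLN none of the 8 was called by edgeR, 2 were lower and 2 higher at an unadjusted p under 0.05, and DESeq2 called 1, Pim1 (edgeR log2 -0.87, edgeR adjusted p = 0.0575). Il10, Il10ra and Stat3 were not called between the genotypes, and which signal the genes of this list answered to was not tested.

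**Figure D5:**
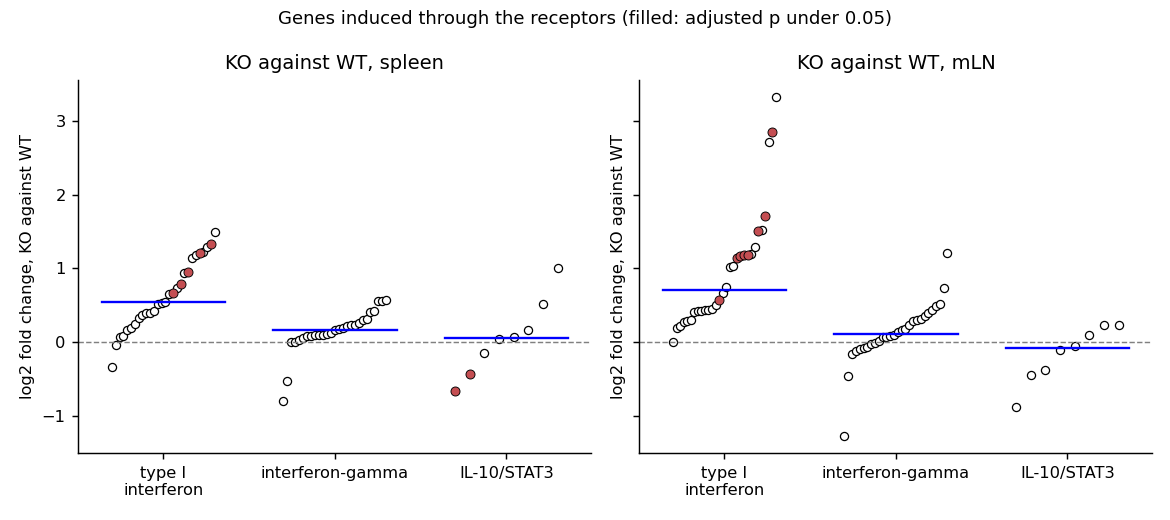
Log2 fold change of KO against WT (vertical axis) of each tested gene in the 3 lists of induced genes, in spleen and mLN, with the list median as a blue line, the median of all genes as a dashed line and filled points where the edgeR adjusted p was under 0.05. The type I interferon list is centred above 0 (0.54 and 0.71), and no gene of the interferon-gamma list is filled.

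Between the organs, called genes of the same lists went both ways. Over all genes tested, 9.70% were called higher and 10.8% lower in mLN in WT, and 11.4% and 13.9% in KO. The type I list had 28 genes tested in WT and 30 in KO, the interferon-gamma list 28 and the IL-10 list 8 in each. In WT, 1 type I gene was higher in mLN (Ifi27l2a, log2 0.69, edgeR adjusted p = 0.0160) and 3 were lower (Parp14 at log2 -0.43, Oas3 at -0.65 and Mx1 at -0.81), with a median of -0.09. In KO, 3 were higher, Ifi27l2a among them (log2 0.62), and 2 lower, Oas3 among them (log2 -0.79), with a median of -0.02. Of the interferon-gamma list, 2 were higher and 1 lower in mLN in WT, where the lower gene, Nlrc5, the activator of MHC class I genes, was at log2 -0.79 (edgeR adjusted p = 0.00799) and the higher genes were Ciita at 0.68 (edgeR adjusted p = 0.0270) and B2m, the light chain of MHC class I, at 0.50 (edgeR adjusted p = 0.0297). In KO, 3 of that list were higher and 3 lower, Nlrc5 at log2 -0.69 (edgeR adjusted p = 0.000170) and B2m at 0.46 (edgeR adjusted p = 0.00285). Of the IL-10 list, 2 were lower in mLN in WT, Sbno2 at log2 -0.66 and Etv3 at -0.38. In KO, Batf was higher and 3 were lower, Hmox1 at log2 -1.87 (edgeR adjusted p = 0.00280), Sbno2 at -0.62 and Pim1 at -0.52, where KO spleen replicate 3 had far more Hmox1 (38.1 CPM) than the others (15.9 to 18.7). That library also had the highest level of the myeloid markers Csf1r (55.55 CPM) and Adgre1 (18.7 CPM). The 12 myeloid markers summed to 223 to 678 CPM in KO spleen and 119 to 151 in KO mLN, and their part in Hmox1 was not tested.

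Over the 15 samples, the gene most like Ifngr1 in log2 CPM was Gm33104, a long noncoding RNA on the same strand of chromosome 10 at 19486715-19507311, which ends 84.6 kb before the start of Ifngr1. Pearson's r was 0.954, and 0.848 after the group means were subtracted, over samples that share the groups and the scaling. Gm33104 was at 19.0 to 25.8 CPM in WT spleen, 8.76 to 13.1 in KO spleen, 33.9 to 36.8 in WT mLN and 8.88 to 26.2 in KO mLN. Its order of groups was that of Ifngr1, and KO mLN replicate 1 was again the highest and replicate 4 the lowest of KO mLN. It fell in KO spleen by log2 0.93 (SE 0.16, edgeR adjusted p = 0.0370), and in mLN the value was log2 -1.11 (SE 0.30, edgeR adjusted p = 0.124). H3f3b (r = 0.928), a histone gene, and BC004004 (r = 0.916) came next for Ifngr1. After the group means were subtracted, these were 0.579 for H3f3b and 0.786 for BC004004. For Ifnar2 the closest genes were ENSMUSG00000095041 (r = 0.927), Btaf1 (0.926) and Sertad2 (0.903), and for Ifnar1 Rnf43 (0.913), Ddx31 (0.911) and Rabgef1 (0.905). For Il10ra they were Khdrbs1 (0.897), Dcxr (0.842) and Gm15326 (0.813), for Il10rb Scd2 (0.856), Utp11 (0.842) and Nkap (0.820), and for Ifngr2 Igf1r (0.885), G430095P16Rik (0.855) and Cul1 (0.807). For the genes named for members other than Ifngr1, r was between 0.717 and 0.926 after the group means were subtracted. No member was among the 3 closest genes of another, also not within the cluster on chromosome 16.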

How the data were processed

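Donor CD4+ T cells were sorted from spleen and mLN and their RNA was made into libraries with a low input kit and sequenced as single-end reads. The authors aligned the reads with STAR 2.6.1a to GRCm38 with GENCODE M23 annotation and deposited raw counts of reads per gene for each sample, without normalization. The submitters' processing notes also name bcl2fastq 2.19.1.403, DESeq2 1.22.2 and RSEM, whose role is not given in the sources used here. The strand setting of the counts is not given either, so antisense and overlapping genes are uncertain. Multimapping reads are not in the counts. A share of 58.4% to 63.4% of uniquely aligned reads lay on no gene and stayed out of library sizes and tests. Depth was 9363940 to 11283439 reads on genes per library. Reads carry no molecular identifiers, so copies made in amplification cannot be told from separate molecules. Small counts may therefore vary by more than counting error.

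Of 55421 identifiers, 55154 were found in GENCODE M21, an annotation of this build, which gave their symbols, positions and exons. Counts were tested with edgeR 4.0.16 in R 4.3.3: filterByExpr, TMM factors, the quasi-likelihood test of the groups compared, and Benjamini-Hochberg adjustment over all genes tested, with a limit of 0.05. Intervals are fold change and SE with the degrees of freedom of that fit. On simulated counts for KO against WT, the test recovered 89% of genes changed by log2 1 and 38% of those changed by 0.5 in spleen. In mLN it recovered 66% and 9%. The changed genes, 100 of each size, were drawn from genes above a minimum mean count, so recovery at lower counts was not assessed. Of the calls, 7.97% in spleen and 7.41% in mLN fell on unchanged genes, more than the limit of 0.05 aims at. Differences near log2 0.5 would thus often be missed. Levels are CPM scaled by TMM factors, per kb of merged exons where genes are compared. Levels and figures were made in Python 3.11.15 (pandas 2.3.3, numpy 2.4.6, matplotlib 3.10.9). Promoters came from RefSeq.

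The members, gene lists and tests were chosen with earlier results of these data known. Named are the members, each gene of the pathway lists called in any of the 4 comparisons, Ifng, Il10, Jak1, Jak2, Tyk2, Stat3, Socs1, Socs3 and Prkaa1, the 2 genes of smallest p per induced list and comparison with a call, and the 3 genes most like each member by Pearson's r of log2 CPM (prior count 2). A gene of the rule is not reported here. Others, among them Il7r, Gbp8, Gbp9, Siglech, Klrb1c, Csf1r, Adgre1, Cd8a, Cd8b1, Acta2, Myh11, Pax5 and the names of called list genes, were added with their values known. The alternatives were each library left out, a block for the replicate number, DESeq2 1.42.0, RLE factors, a fit of all 15 samples together, no filter, and a minimum of 10 counts per sample. Counts of the type I list under these and the fits without libraries of high erythroid markers were chosen after seeing the data.

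The labels number the replicates but do not say what a number shares. Same-numbered WT and KO samples did not deviate together (r of deviations from group means -0.210 to 0.146 in spleen and -0.0531 to 0.00339 in mLN). Same-numbered spleen and mLN samples did in WT (r 0.243 to 0.291) and not throughout in KO (0.0258 to 0.260).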

Additional observations from a re-analysis of the deposited data

Results flagged for a closer look

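In 168 groups of 4 samples, 3 samples lay far from the other 3 of their group by Dixon's criterion, where chance flags about 1 in 20 groups. Il20ra, a chain of the IL-20 receptor, was at 2.51 CPM in KO mLN replicate 4 and at 0 in the other 3 KO mLN libraries. Etv3, a repressor induced by IL-10, was at 104 CPM in WT spleen replicate 3 and at 89.4 to 91.9 in the others. Hmox1, heme oxygenase, was at 38.1 CPM in KO spleen replicate 3 and at 15.9 to 18.7 in the others. None of these values belonged to the 6 interferon and IL-10 receptor chains. Their cause was not tested.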

How the results depend on the processing

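Of 450 values of the 6 receptor chains under the alternatives, 435 kept their direction and side of the threshold or were not called in either, 7 lost a call, 8 gained one and none reversed as a called value; 25 values that were not called had the other sign. The calls of Ifngr1 in spleen and, between the organs, in WT held under each alternative run. In KO against WT in mLN, Ifngr1 was at log2 -1.07 (adjusted p = 0.121) with the replicate block, and at -1.32 to -0.98 without 1 library. Ifnar2 was called in spleen at log2 0.48 by DESeq2 and 0.49 without the filter, and ranged from 0.38 to 0.56 without 1 library. In mLN it was called at 0.60 by DESeq2, 0.59 without the filter and 0.59 with all 15 samples in 1 fit. Ifngr1 between the organs in KO was called at log2 0.40 without the filter and ranged from 0.21 to 0.54 without 1 library.

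Numbers of genes called moved far more. Of KO against WT in spleen, 185 genes were called in the reported fit, 799 by DESeq2, 1422 without the filter, 85 with all 15 samples, 119 without WT replicates 3 and 4, 17 with the replicate block, and 12 to 324 without 1 library. In mLN, 92 were called in the reported fit, 561 by DESeq2, 913 without the filter, 500 with all 15 samples, 1 with the block, and 4 to 117 without 1 library. Between the organs in WT, 2980 were called in the reported fit and 1816 to 2780 in the fits without 1 library. The interaction had 2 calls by DESeq2, 112 without the filter and 3 with the block. Genes of the type I interferon list called higher in spleen were 5 in the reported fit, 11 by DESeq2, 21 without the filter, 8 without WT replicates 3 and 4, 0 with the block and 1 to 9 without 1 library. In mLN they were 8, and 17 by DESeq2, 19 without the filter, 0 with the block and 1 to 7 without 1 library. The cause of these shifts was not tested. The replicate numbers did not pair WT with KO samples, and the block changed no other call of a receptor chain. With the longest transcript, 14 of 15 pairs of chains kept their order per length. Ifngr2, with 32 to 121 reads per library, is the chain for which depth limits precision most.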
